A study of Mus musculus with 6 samples.

Results

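Endothelial genes are described here, 34 genes that mark or act in the cells lining blood and lymph vessels, chosen by name. They were measured by 55 probe sets whose annotation gave a single gene symbol, out of 45037 probe sets tested, and make up 34 of the 18193 genes measured in this way. Each gene was read from its probe set with the highest mean over the 6 tumours, and 23 of the 34 lay above the median level of all probe sets. None was missing from the array.

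The samples were 6 tumours of GLMT1, a tumour cell line of the mouse strain GRS/A named after a lung metastasis, which had been injected under the skin of the back. The hosts were male GRS/A mice, 3 of them wild type (WT) and 3 carrying GRS/A-TgH(TnC), a tenascin-C deficiency (TNKO), with 1 tumour per mouse. Mice were 8 weeks old when taken as hosts, per the study's design, and the sample labels give a host age of 10 weeks without naming the time point. All 6 tumours came from the same GLMT1 cell line, so the groups differ in the genotype of the host. The labels call the samples tumour cells, yet the RNA came from excised tumours, with whatever vessels they held. The question is what the absence of the matrix glycoprotein tenascin-C in host tissue does to expression in the graft.

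A graft recruits its vessels mainly from the host. Endothelial cells are held together by VE-cadherin and claudin-5, respond to vascular endothelial growth factors (VEGF) through the receptor tyrosine kinases KDR, FLT1 and FLT4 and to angiopoietins through TEK, and keep their identity through transcription factors of the ETS and SOX families. Lymphatic endothelium is set apart by PROX1, FLT4 and LYVE1, of which LYVE1 is also carried by some tissue macrophages.

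The deposited values were on a log2 scale on which arrays differed very little. The median probe set spanned 5.46 millionths of a log2 unit (1 millionth is 1e-06) over the 6 arrays, and 0.553% of probe sets spanned more than 0.01, so a difference is given in these millionths and in residual SDs (the spread left inside the host groups), and not as a fold. Array medians lay at 6.57 in each tumour, but that of TNKO tumour 3 stood 2310.1 millionths above the mean of the other 5. This array had 22553 probe sets above that mean, against 22516 to 22522 in the others, and over probe sets its median difference from the mean of the other arrays was -0.0562 millionths. Of the hybridisation controls, bacterial and phage sequences added before hybridisation, 18 of 18 had a higher TNKO mean, with no overlap between groups in 16, by a median of 16.8 millionths.

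None of the 34 endothelial genes passed the test between hosts, yet 30 of them had a higher mean in tumours of TNKO hosts and 4 a lower one. The lymphatic and macrophage receptor Lyve1 differed most in residual SDs, followed by the tight junction gene Cldn5, the blood and endothelial factor Tal1 and the receptor phosphatase Ptprb. Among the 4 lower genes were Mmrn2, a matrix protein of vessel walls, and Apln, the ligand of the receptor Aplnr. The median difference over the 34 genes was 16.4 millionths, or 1.12 residual SDs, against 0.2 millionths and 0.283 residual SDs over all genes. The hybridisation controls moved the same way by a similar median, and their part in this difference was not tested.

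By limma with Benjamini-Hochberg adjustment over all probe sets, 0 of the 55 endothelial probe sets passed 0.05, where 0.175% of all probe sets did. At an unadjusted p under 0.05, 6 endothelial probe sets were higher and 2 lower, where 9.53% of all probe sets were higher and 10.8% lower. Read by gene, 4 of 34 (11.8%) were higher at that threshold, close to the 9.99% of all genes, and 1 was lower, where 8.43% of all genes were. All 3 TNKO tumours lay above all 3 WT tumours in 8 of the 34 genes (23.5%), against 15.0% of all genes, and below them in 1, against 11.1%. The share with a higher mean, 88.2%, stood beside 57.6% of all genes. Bulk tumour RNA cannot tell more endothelial cells from more RNA per endothelial cell.

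**Figure D1:**
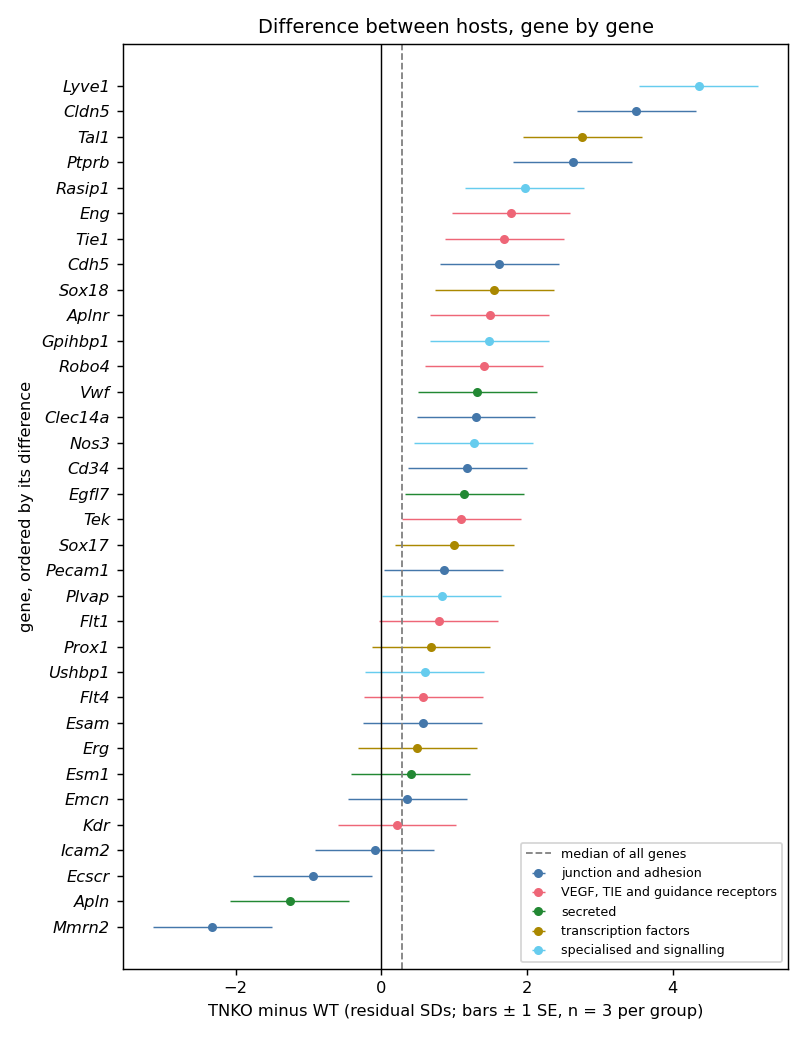
Difference between tumours of TNKO and WT hosts (TNKO minus WT, horizontal axis, in residual SDs) for each of the 34 endothelial genes (vertical axis), with bars of 1 SE and 3 tumours per group; colours give the role of the gene and the dashed line is the median of all genes at 0.283. Lyve1 at 4.36 and Cldn5 at 3.5 lie farthest right, and Mmrn2, Apln, Ecscr and Icam2 lie left of 0.

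The endothelial genes varied together from tumour to tumour, inside a host genotype as well as between genotypes. WT tumour 3 was the lowest of the 3 WT tumours in 25 of the 34 genes, where it was so in 32.8% of all genes. TNKO tumour 1 was the highest of the 3 TNKO tumours in 26 of 34, against 34.6% of all genes, and TNKO tumour 3 the lowest of them in 25, against 40.5%. In 20 of 34 genes the 6 tumours ran from WT tumour 3 at the bottom to TNKO tumour 1 at the top, an order seen in 6.1% of all genes. The range among the 3 WT tumours was wider than the difference between hosts in 26 of the 34 genes, and in 68.7% of all genes. TNKO tumour 3 lay below the highest WT tumour in 25 of the 34, and the share of all genes with this order was not computed.

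The count of 30 higher genes rested in part on these tumours. Without WT tumour 3, 26 of 34 genes were higher, against 57.2% of all genes, and the median difference was 6.94 millionths, with Esam, Emcn, Kdr and Erg turning to lower means. Without TNKO tumour 1, 27 were higher, against 56.5% of all genes. Without both, a setting chosen after the data were seen, 22 of 34 were higher, against 55.9% of all genes, and the median difference was 2.85 millionths. Fewer tumours leave less room for overlap, in these genes as in all. Groups did not overlap in 15 of the 34 genes without WT tumour 1, against 36.0% of all genes, and in 22 without TNKO tumour 3, against 40.5%.

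**Figure D2:**
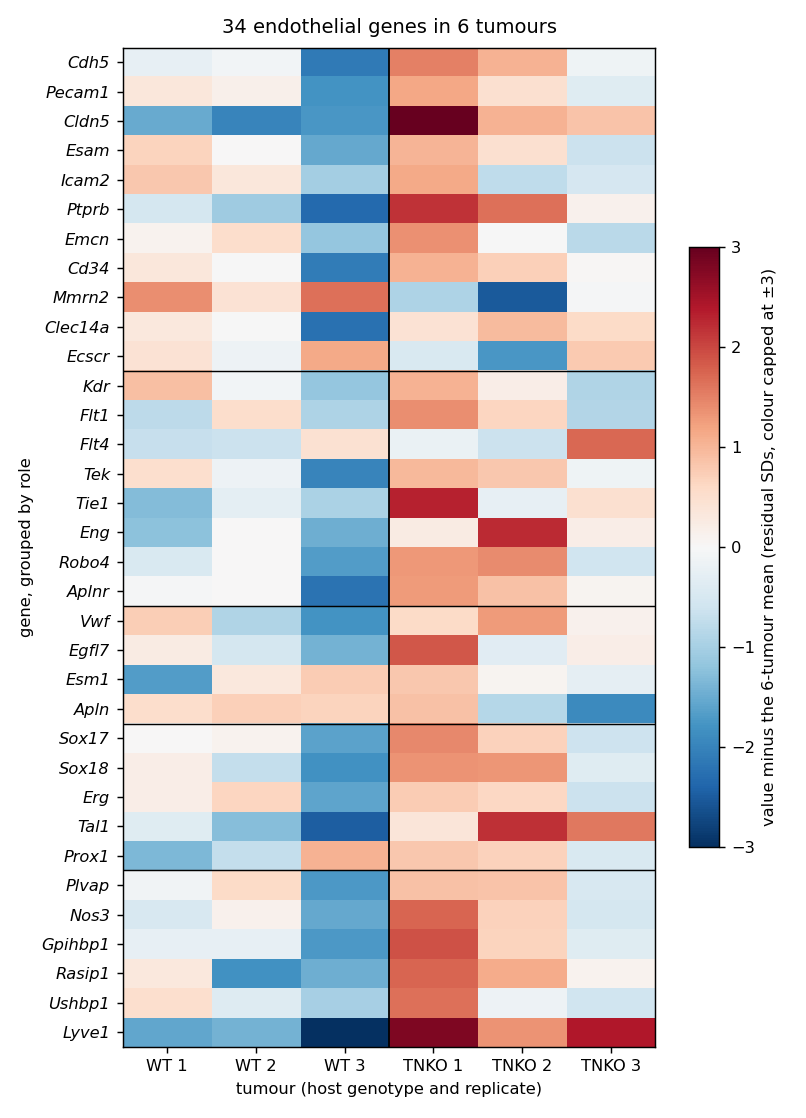
Value of each of the 34 endothelial genes (rows, grouped by role and separated by lines) in each of the 6 tumours (columns), as the value minus the mean of the gene over the 6 tumours in residual SDs, red above and blue below, with colour capped at 3. The column of WT tumour 3 is blue in most rows and that of TNKO tumour 1 red, while Mmrn2 and Ecscr run the other way.

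Against the median profile of the other members over the 6 arrays, 17 of the 34 genes had a Pearson correlation above 0.8, given as a description, since all genes share the same arrays. The highest were 0.982 for Cdh5, 0.976 for Sox17 and 0.971 for Gpihbp1. The lowest were -0.778 for Ecscr, -0.747 for Mmrn2 and -0.456 for Flt4, and 6 genes were below 0. With the mean of each host group removed, 18 genes were above 0.8, among them Cdh5 (0.99), Sox17 (0.985) and Pecam1 (0.983). The likeness among these genes was therefore also seen within the host groups. How many of all genes come as close to this profile was not computed.

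Junction and adhesion genes, 11 in all, were higher in 8 and lower in 3. Values are given as deviations from the mean of the gene over the 6 tumours, in millionths of a log2 unit, for tumours 1, 2 and 3 of each host in that order. Cdh5, which encodes VE-cadherin, the adhesion molecule of endothelial junctions, stood at -59.5, -18.8 and -526 in WT hosts and at 376, 259 and -30.9 in TNKO hosts. WT tumour 3 was far below the rest and TNKO tumour 3 lay among the other WT tumours, so the groups overlapped. The difference was 403 millionths (SE 203, limma adjusted p = 0.326, n = 3 per group). Pecam1, the adhesion molecule CD31 of endothelium, platelets and leukocytes, stood at 27.6, 12.9 and -142 in WT hosts and at 91.9, 38.7 and -29.1 in TNKO hosts. Here too WT tumour 3 was lowest and TNKO tumour 3 was below WT tumours 1 and 2. The difference of 67.7 millionths (SE 64.6, adjusted p = 0.591) was about as large as its error, and it was 13.6 without WT tumour 3.

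Cldn5, the claudin of endothelial tight junctions, had the narrowest spread among WT tumours of the 6 members with the widest range. It stood at -256, -336 and -297 in WT hosts and at 568, 178 and 144 in TNKO hosts. All TNKO tumours lay above all WT tumours, and WT tumour 3 did not stand apart. The difference was 593 millionths (SE 138, 3.5 residual SDs, limma adjusted p = 0.123), 592 without WT tumour 3 and 457 without TNKO tumour 1. Ptprb, the phosphatase VE-PTP that acts on VE-cadherin and TEK, stood at -44.6, -90.4 and -197 in WT hosts and at 183, 138 and 10.3 in TNKO hosts. The groups did not overlap, TNKO tumour 3 being the lowest of its group and WT tumour 1 the highest of the other. The difference was 221 millionths (SE 68.7, adjusted p = 0.177), and both dimmer probe sets of Ptprb were also higher, by 93.3 and 2.25 millionths, with overlapping groups.

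Cd34, a sialomucin of endothelial and progenitor cells, ranged widely, at 484, -15.9 and -3055 in WT hosts and 1526, 1025 and 34.8 in TNKO hosts. The low value of WT tumour 3 was the main feature of the gene, and TNKO tumour 3 lay below WT tumour 1. The difference of 1724 millionths (SE 1189, adjusted p = 0.455) was 628 without WT tumour 3. Clec14a, an endothelial C-type lectin, was higher in all 3 TNKO tumours in its brighter probe set (16.6 millionths, adjusted p = 0.415) and lower on average in its dimmer one (-4.22 millionths). Esam, Emcn and Icam2, surface molecules of endothelium, differed by 53.2, 16.2 and -0.983 millionths, with overlapping groups.

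Mmrn2, which encodes multimerin-2, a ligand of CLEC14A in the vessel matrix, ran against the other members. It stood at 109.8, 34.8 and 131 in WT hosts and at -73.7, -199.6 and -2.1 in TNKO hosts. All TNKO tumours lay below all WT tumours, WT tumour 3 was the highest and TNKO tumour 2 the lowest. The difference was -184 millionths (SE 64.6, adjusted p = 0.207), and its 3 other probe sets were also lower, by -105, -147 and -37.8 millionths, so the direction did not rest on the probe set chosen. Ecscr, an endothelial chemotaxis regulator, also had WT tumour 3 as the highest and TNKO tumour 2 as the lowest, with a difference of -6.22 millionths (SE 5.37) and overlapping groups.

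**Figure D3:**
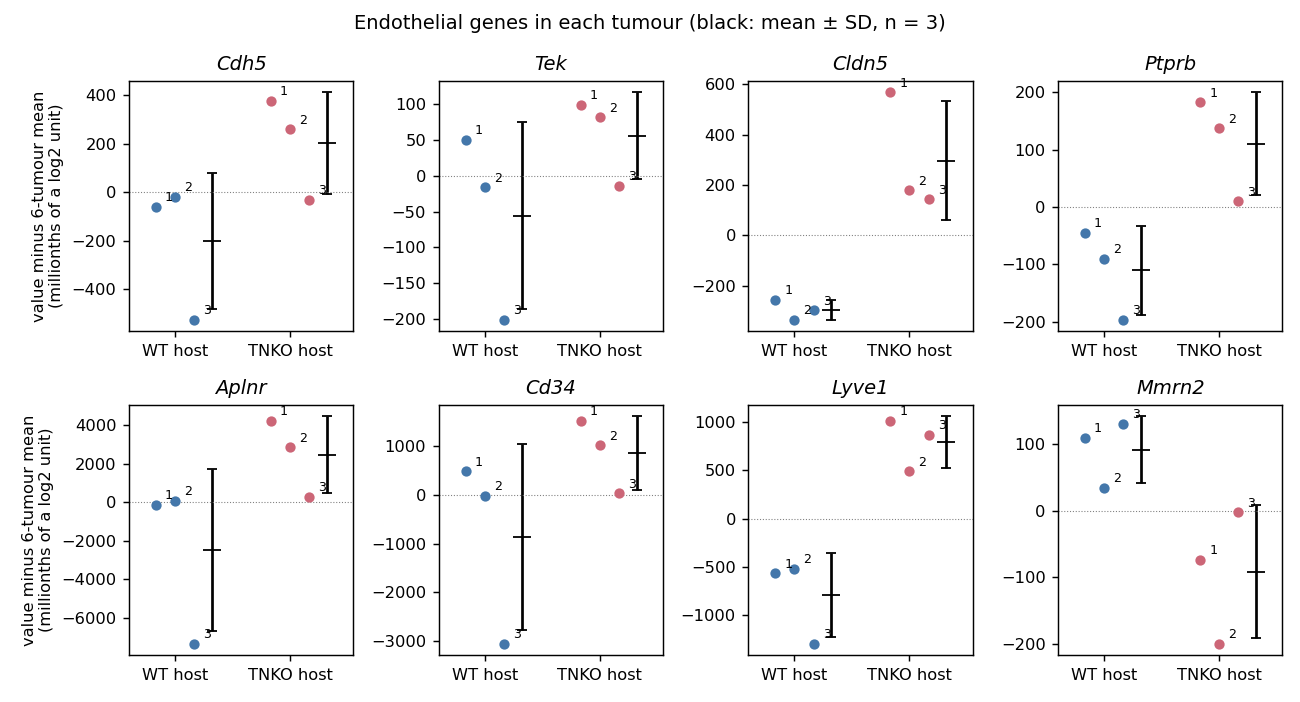
Values of 8 endothelial genes in each tumour, as the value minus the mean of the gene over the 6 tumours in millionths of a log2 unit (vertical axis, a scale of its own in each panel), for WT hosts (blue) and TNKO hosts (red); numbers give the tumour and black marks the mean ± SD of 3 tumours. WT tumour 3 is far below the others in Cdh5, Tek, Aplnr and Cd34, while Cldn5, Ptprb, Aplnr and Lyve1 have all TNKO tumours above all WT tumours and Mmrn2 has them below.

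Receptors for growth factors and guidance cues, 8 in all, were all higher on average, by a median of 8.72 millionths. The widest was Aplnr, the receptor of apelin and elabela, at -137, 69.5 and -7349 in WT hosts and at 4250.4, 2871 and 295 in TNKO hosts. All TNKO tumours lay above all WT tumours, although WT tumour 2 and TNKO tumour 3 were close beside the distance to WT tumour 3. The difference was 4944 millionths (SE 2701, adjusted p = 0.358), and 2506 without WT tumour 3. Its dimmer probe set was higher by 53.9 millionths. Tek, the angiopoietin receptor TIE2, stood at 50.3, -16.2 and -201 in WT hosts and at 98.9, 81.7 and -13.6 in TNKO hosts. WT tumour 3 was again the lowest and the groups overlapped (difference 111 millionths, SE 83, adjusted p = 0.488).

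The VEGF receptors differed at small sizes, and among them only Flt1 changed direction between probe sets. Kdr, the main signalling receptor of VEGF-A, stood at 12.1, -1.02 and -15.4 in WT hosts and at 13.8, 2.57 and -12.1 in TNKO hosts. The WT and TNKO tumours spread over the same range (difference 2.88 millionths, SE 10.9, adjusted p = 0.913). Flt1, which also binds VEGF-A and limits its supply to KDR, differed by 1.97 millionths in its brightest probe set and by -0.486, -0.438 and -0.594 in the 3 dimmer ones, so its direction depended on the probe set. The last of these had all TNKO tumours below all WT tumours (-2.58 residual SDs, limma adjusted p = 0.315). Flt4, the receptor of VEGF-C and VEGF-D on lymphatic endothelium, stood at -10.6, -9.98 and 7.17 in WT hosts and at -3.14, -10 and 26.6 in TNKO hosts. In this brightest probe set WT tumour 3 was not low and only TNKO tumour 3 lay above the WT tumours (difference 8.93 millionths, SE 12.6, adjusted p = 0.732). The dimmer probe set of Flt4 stood at -2.35, -0.31 and -0.995 in WT hosts and at 0.839, 0.0103 and 2.8 in TNKO hosts. There the groups did not overlap, at a small size (2.44 millionths, SE 1.02, 1.95 residual SDs, adjusted p = 0.266). Tie1, a partner of TEK, and Eng, a co-receptor of TGF-beta and BMP9, were higher in all 3 TNKO tumours by 6.95 millionths (SE 3.36, adjusted p = 0.311) and 8.51 millionths (SE 3.9, adjusted p = 0.291). Robo4, an endothelial roundabout receptor, differed by 77 millionths (SE 44.4) with overlapping groups.

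Of the 4 secreted products, Vwf, the factor that carries platelets to the vessel wall, stood at 78.4, -97.7 and -193 in WT hosts and at 60.8, 138 and 13.6 in TNKO hosts. WT tumour 1 lay above TNKO tumours 1 and 3, so the groups overlapped (difference 142 millionths, SE 87.4, adjusted p = 0.409). Egfl7, a matrix-bound regulator of vessel tube formation, was higher on average in each of its 4 probe sets, by 149.8 millionths in the brightest. Esm1, a product of sprouting tip cells, differed by 0.939 millionths. Apln, the apelin ligand also made by tip cells, was lower on average (-13.3 millionths, SE 8.61), with WT tumours within a narrow band and TNKO tumours spread from the highest to the lowest value of the 6. Receptor and ligand of the apelin pair thus had means of opposite sign, and neither passed the test.

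The 5 transcription factors were higher on average, by a median of 3.83 millionths. Tal1, a factor of blood and endothelial progenitors, stood at -0.266, -0.928 and -1.79 in WT hosts and at 0.258, 1.59 and 1.14 in TNKO hosts. The groups did not overlap, at a very small size (1.99 millionths, SE 0.589, 2.76 residual SDs, adjusted p = 0.181). Sox17 and Sox18, the SOX factors of arterial and lymphatic development, differed by 25.9 and 90.7 millionths with overlapping groups, and the dimmer probe set of Sox17 had no overlap (7.53 millionths, adjusted p = 0.237). Erg, the ETS factor that maintains endothelial identity, differed by 3.83 millionths (SE 6.37). Prox1, the factor that sets lymphatic identity, stood at -0.243, -0.129 and 0.188 in WT hosts and at 0.146, 0.124 and -0.0843 in TNKO hosts. In this brightest probe set the spread of Prox1 was the narrowest of all members, 0.431 millionths, and WT tumour 3 was the highest (difference 0.123 millionths, adjusted p = 0.834). Its 2 dimmer probe sets spanned 3.05 and 150.4 millionths, with differences of 0.0567 and 36.9 and overlapping groups. All its probe sets lay at 5.53 to 5.75, where the lowest values on these arrays were 5.2.

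Promoter sequence was examined because most of these genes moved together across tumours. RefSeq promoters (GRCm38.p6, the 250 bases before a start site) were matched for 19 of the 34 members. The letters AGGAAG, a core word bound by ETS factors, searched on both strands as all words here, were in a promoter of 11 of 19 members, against 32.3% of all genes with a promoter in the table. The members with it were Apln, Cd34, Egfl7, Emcn, Eng, Erg, Flt1, Rasip1, Robo4, Tie1 and Ushbp1. The word AACAAT, bound by SOX factors, was in 4 of 19 (10.9% of all genes), and AGATAA, bound by GATA factors, in 2 (11.4%). The word TATAAA of the core promoter was in 3 (14.3%), and GGGCGG, the GC box, in 9 (35.4%). Different words could share bases. Genes with several start sites have more windows to hold a word, and a match is a description, not a site. Sequences are given 5′ to 3′ on the strand of the gene for Cd34 and Tie1, which hold the ETS word and had unlike patterns over the tumours, and for Cldn5, which had no overlap between hosts and holds no ETS word. Capitals mark the ETS word or the GC box. Cd34 lies at chr1:194938571-194938820 (plus strand), Tie1 at chr4:118489850-118490099 (minus strand) and Cldn5 at chr16:18776597-18776846 (plus strand).
Cd34: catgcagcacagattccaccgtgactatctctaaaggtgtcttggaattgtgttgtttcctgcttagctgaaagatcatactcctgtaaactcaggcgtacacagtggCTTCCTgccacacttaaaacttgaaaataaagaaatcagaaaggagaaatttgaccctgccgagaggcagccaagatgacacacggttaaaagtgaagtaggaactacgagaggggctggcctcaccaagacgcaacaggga
Tie1: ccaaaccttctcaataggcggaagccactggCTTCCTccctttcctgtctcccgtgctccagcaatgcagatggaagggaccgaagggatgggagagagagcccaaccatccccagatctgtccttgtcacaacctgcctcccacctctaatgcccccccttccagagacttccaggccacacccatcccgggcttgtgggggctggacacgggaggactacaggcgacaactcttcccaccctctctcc
Cldn5: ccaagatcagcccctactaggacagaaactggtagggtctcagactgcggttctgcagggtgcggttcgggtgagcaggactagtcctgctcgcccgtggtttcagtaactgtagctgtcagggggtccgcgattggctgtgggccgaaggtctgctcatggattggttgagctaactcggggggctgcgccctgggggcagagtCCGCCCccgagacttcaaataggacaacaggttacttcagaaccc

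The 6 genes of specialised endothelial function or signalling were all higher on average. Lyve1, the hyaluronan receptor of lymphatic vessels and some macrophages, stood at -564, -516 and -1293 in WT hosts and at 1013, 489 and 871 in TNKO hosts. All TNKO tumours were well above all WT tumours, and TNKO tumour 3, low in most other members, was high. The difference was 1582 millionths (SE 296, 4.36 residual SDs), with a limma adjusted p of 0.0994, the lowest among the members, and 0.0735 to 1 over the alternatives. Its dimmer probe set had the same pattern, higher by 177 millionths (3.34 residual SDs, adjusted p = 0.131). Of the other lymphatic genes, Prox1 and the brightest probe set of Flt4 had overlapping groups, and the dimmer probe set of Flt4 did not. Among macrophage markers 9 of 11 had higher means, with summed levels of 99.5 to 99.51 in WT hosts and 99.51 in TNKO hosts, and with no overlap in 1 of them, the mannose receptor gene Mrc1 (2068 millionths, SE 1439, and 654 without WT tumour 3). Folr2, highest in TNKO tumour 1 and lowest in WT tumour 3, differed by 836 millionths (SE 834), and Itgam by -6.1 millionths (SE 6.29). Csf1r and Adgre1, defining macrophage markers named after their values were seen, differed by 2.67 (SE 5.36) and 7.9 millionths (SE 8.64). Groups overlapped in each of these genes. Stab1, a scavenger receptor of sinusoidal endothelium and macrophages, was higher without overlap (395 millionths, SE 93.6, adjusted p = 0.126), as was the platelet and macrophage chemokine gene Pf4 (1298 millionths, SE 403, adjusted p = 0.176). The part of macrophages in the Lyve1 difference was not tested.

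Gpihbp1, which holds lipoprotein lipase on the capillary wall, stood at -489, -514 and -3481 in WT hosts and at 3839.5, 1363 and -718 in TNKO hosts. TNKO tumour 1 was far above and WT tumour 3 far below the rest, while TNKO tumour 3 lay under WT tumours 1 and 2 (difference 2990 millionths, SE 1649.6, adjusted p = 0.362). Lpl, the gene of that lipase, is made by fat cells and was highest in TNKO tumour 1 and lowest in WT tumour 3 as well, with a difference of 310541 millionths (SE 130752, adjusted p = 0.259). Plvap, the protein of capillary diaphragms, Nos3, the endothelial nitric oxide synthase, Rasip1, a RAS-binding regulator of vessel lumen, and Ushbp1 differed by 2.88 to 56.6 millionths, all with overlapping groups.

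Adipocyte markers shared much of this order of tumours. Of 13 measured, all had higher means in TNKO hosts, WT tumour 3 was the lowest of the 6 tumours in 11 and TNKO tumour 1 the highest in 12. Their summed log2 level ran from 89.53 to 91.9 in WT hosts and from 91.01 to 94.5 in TNKO hosts, while that of the 34 endothelial genes ran from 243.41 to 243.43 and from 243.43 to 243.44. Fibroblast markers had higher means in 9 of 10 (90.0%), a share near that of the endothelial genes, and were lowest in WT tumour 3 in 9 of 10, with sums of 103.42 to 103.5 in WT hosts and 103.47 to 103.5 in TNKO hosts. The exception in direction was Dcn, the matrix proteoglycan decorin, lower without overlap (-45.7 millionths, SE 9.08, adjusted p = 0.104). Skeletal muscle markers were lower in TNKO hosts in 14 of 14, with TNKO tumour 1 the lowest in 13 and sums of 95.02 to 96.86 and of 89.88 to 96.52. No marker was at 0, since the lowest values on these arrays were 5.2. The part of fat, muscle or stroma in the endothelial difference was not tested.

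Pericyte and smooth muscle markers were higher in 9 of 13 (69.2%), beside 57.6% of all genes. WT tumour 3 was the lowest of the 6 in 6 of them, and summed levels were 106.18 to 106.19 in WT hosts and 106.19 in TNKO hosts. Rgs5, a pericyte gene named after its values were seen, was lowest in WT tumour 3 (-5075) and differed by 2874 millionths (SE 1874, adjusted p = 0.431). Groups did not overlap in 3 higher and 0 lower of the 13 markers, beside 15.0% and 11.1% of all genes. The 3 were Myh11, smooth muscle myosin (1.91 millionths, SE 0.311, limma adjusted p = 0.105), Higd1b (63.1 millionths, SE 27.5, adjusted p = 0.271) and Mcam (7.44 millionths, SE 3.29, adjusted p = 0.278). Haematopoietic and platelet markers were higher in 7 of 11, and epithelial tumour markers and epidermis and hair follicle markers in 5 of 10 each. For these 3 lists, WT tumour 3 was the lowest of the 6 in 4, 1 and 2 genes. TNKO tumour 3 was the highest of the 6 in 6 of the 10 epidermis and hair follicle markers. Their summed levels were 67.52 to 67.58 in WT hosts and 67.47 to 77.27 in TNKO hosts, the top being that tumour. There the hair genes Krtap8-1 and Krt25, named after their values were seen, stood at 5472899 and 2538543 millionths. The part of skin or hair tissue in the endothelial values of that tumour was not tested.

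**Figure D4:**
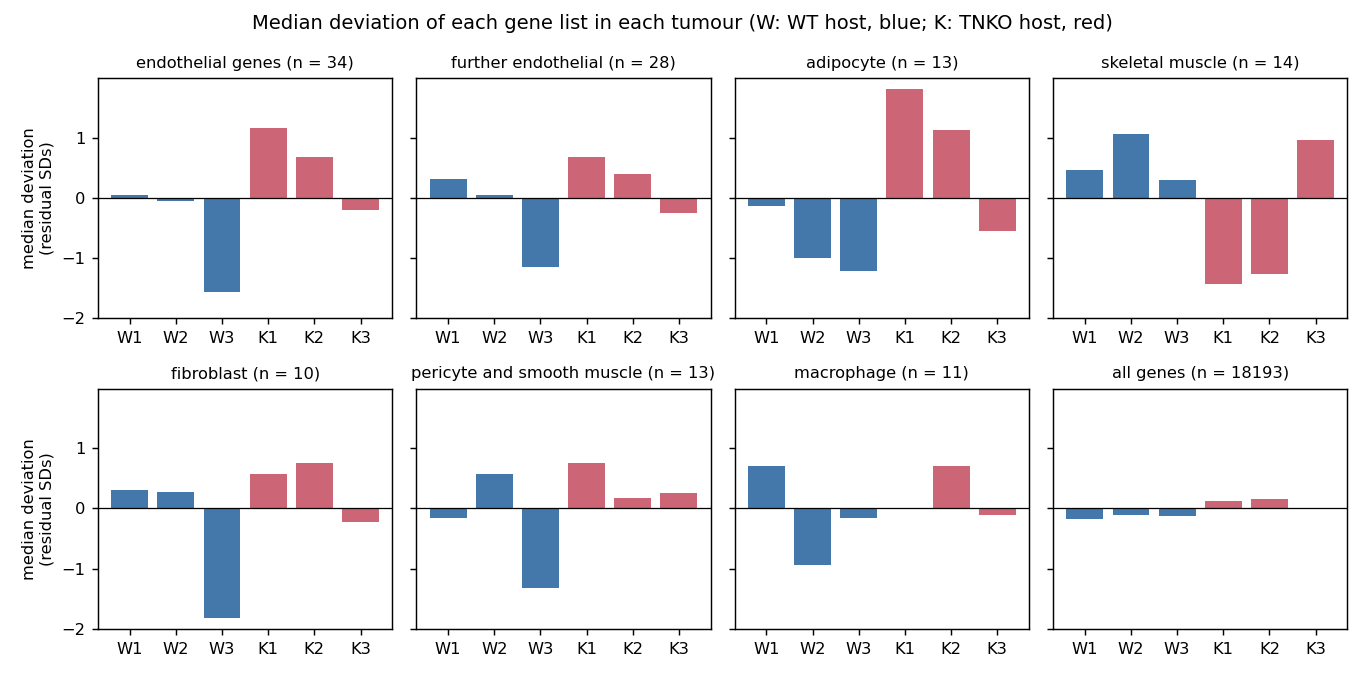
Median deviation of 8 gene lists in each tumour (vertical axis, in residual SDs; W1 to W3 in blue are WT hosts, K1 to K3 in red are TNKO hosts), with the number of genes in each title. The endothelial genes have medians of -1.56 in WT tumour 3 and 1.15 in TNKO tumour 1, the further endothelial genes have -1.15 and 0.674 and the adipocyte markers have -1.21 and 1.8, while all genes stay between -0.174 and 0.163.

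Of 28 VEGF, angiopoietin, Notch and BMP partners of these receptors 18 (64.3%) were higher and 10 lower, beside 57.6% of all genes higher, and none passed adjustment. Their median difference was 0.708 millionths, or 0.45 residual SDs. Groups did not overlap in 2 higher genes, where 15.0% of all genes were so, and in 5 lower ones, where 11.1% were. The higher ones, named after their values were seen, were the receptor genes Notch1 (221 millionths, SE 91.3, adjusted p = 0.254) and Ephb4 (1.53 millionths, SE 0.652, adjusted p = 0.283). Among the 5 lower ones, Vegfa, the main ligand of KDR, stood at 67.8, 332 and 559 in WT hosts and at -104, -605 and -250 in TNKO hosts, and WT tumour 3, low in most endothelial genes, was its highest. The difference was -639 millionths (SE 206, adjusted p = 0.185). Pgf, a ligand of FLT1, differed by -50 millionths (SE 12.3, adjusted p = 0.132), and Jag1, a Notch ligand, by -74 millionths (SE 25.9, adjusted p = 0.205). Vegfc, a ligand of FLT4, and the co-receptor gene Nrp2, named after their values were seen, were also lower without overlap, by -75.1 and -30.9 millionths.

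Among 17 further endothelial transcription factors 9 were higher and 8 lower, beside 57.6% of all genes higher. By limma 0 were higher and 2 lower at an unadjusted p under 0.05, where 9.99% and 8.43% of all genes were, and 0 passed adjustment. Groups did not overlap in 2 higher and 3 lower of them, where 15.0% and 11.1% of all genes were so. Elk3, an ETS repressor also expressed outside endothelium, stood at 7.22, 5.37 and 9.23 in WT hosts and at -5.63, -9.67 and -6.5 in TNKO hosts. Its groups were clearly apart, and its adjusted p of 0.0661 missed the threshold (difference -14.5 millionths, SE 1.66). Nr2f2, a venous factor, was lower without overlap as well (-16 millionths, SE 3.17, adjusted p = 0.105), as was Klf4 (-63.2 millionths, SE 27.8, adjusted p = 0.276). The higher ones, named after their values were seen, were the forkhead genes Foxc1 (31.6 millionths, SE 19.1, adjusted p = 0.399) and Foxc2 (0.515 millionths, SE 0.221, adjusted p = 0.402). Of 28 further surface and junction genes of endothelium 19 (67.9%) were higher and 9 lower, beside 57.6% of all genes higher. WT tumour 3 was the lowest of the 6 tumours in 16, and in 3930 of all 18193 genes. In this list 3 genes were higher and 1 lower without overlap, beside 15.0% and 11.1% of all genes. Beside Stab1, Myct1 was higher without overlap (6.51 millionths, SE 1.93, adjusted p = 0.169) and Apold1 lower (-4.5 millionths, SE 1.57, adjusted p = 0.207). She, named after its values were seen, was the other higher one (27.4 millionths, SE 17.6, limma adjusted p = 0.423).

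Scaling the arrays changed the direction of most members and of most genes, but not once TNKO tumour 3 was left out. With array medians subtracted, 4 of 34 endothelial genes were higher, where 1.3% of all genes were, and with quantile normalization 5 were, where 1.8% of all genes were. The median difference of all probe sets moved to -764 and -538 millionths. Cd34, Aplnr, Gpihbp1 and Lyve1, whose deposited differences were larger than this shift, stayed higher under both. The 4 members with lower means stayed lower, as a downward shift leaves them. These outcomes follow from the sign and size of the deposited differences and do not measure how robust a gene is. With TNKO tumour 3, the array whose median stood apart, left out, 32 of 34 were higher after subtraction of array medians, where 88.8% of all genes were, so this count is near its background. After quantile normalization without that tumour 30 of 34 were higher, where 52.6% of all genes were. Those settings were chosen after the data were seen. In the latter limma called 3.16% of all probe sets, and 3 of the 55 endothelial ones. They were the brightest of Mmrn2 (-405 millionths, limma adjusted p = 0.000807) and dimmer ones of Egfl7 (529 millionths, adjusted p = 0.0449) and Ptprb (519 millionths, adjusted p = 0.049). Across the alternatives, the brightest Mmrn2 probe set had adjusted p-values from 0.000807 to 1.

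**Figure D5:**
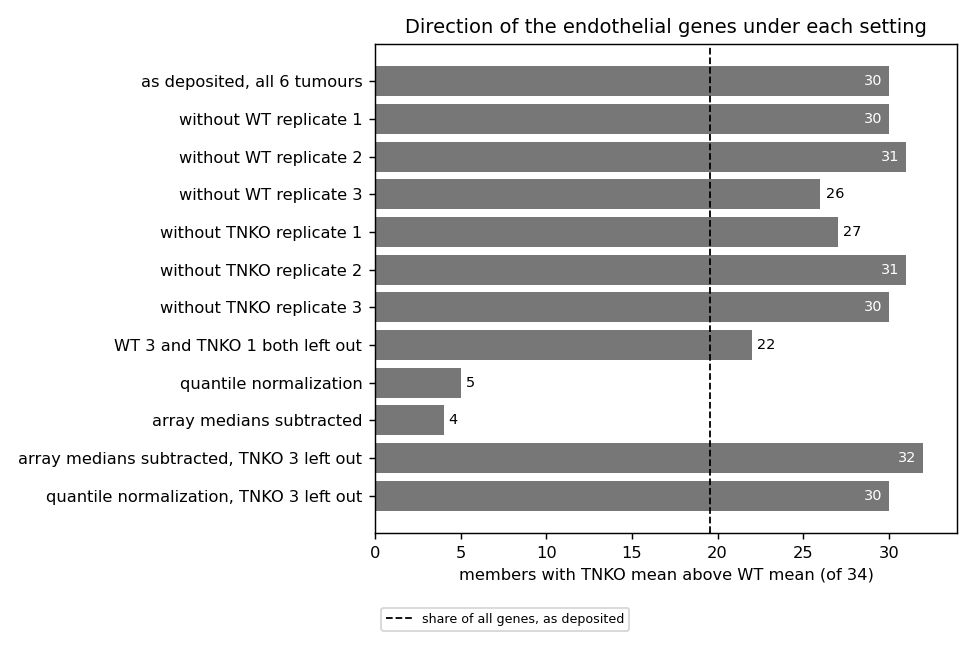
Number of the 34 endothelial genes with a higher mean in TNKO than in WT hosts (horizontal axis) as deposited, with tumours left out, and after rescaling of the arrays (vertical axis); the dashed line is the share of all genes with a higher mean as deposited, 57.6%, applied to 34, and does not hold for the rescaled arrays. The count is 30 with all tumours, 22 without WT tumour 3 and TNKO tumour 1, 4 and 5 after rescaling all 6 arrays, and 32 and 30 after rescaling without TNKO tumour 3.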

How the data were processed

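RNA of 6 tumours was hybridised to mouse arrays, 1 per tumour. The deposited log2 values are the authors' own normalized values per probe set, per the labels. Their summarisation is not given in the sources used here, and the submitters' processing notes name R 2.7.2. Array annotation gave 1 symbol to 34945 probe sets, several to 932 and none to 9160, and only the first kind was named. Of 45101 probe sets, 64 controls were left out. Groups of 3 were compared with limma 3.58.1 (R 4.3.3; lmFit, eBayes) over 45037 probe sets with Benjamini-Hochberg adjustment, threshold 0.05, after a check on simulated data. The number of arrays limits precision. The labels call the tumours biological replicates. All 34 members were named; values per tumour were given for those at an unadjusted p under 0.05, the 6 widest ranges and Cdh5, Pecam1, Kdr, Tek, Vwf, Lyve1, Prox1 and Flt4, and up to 3 genes of lowest p per list. Members and lists were chosen with earlier results of these data known. Alternatives covered scaling, a level filter, moderation, an offset of 16 before log2, probe sets averaged per gene, a replicate block and tumours left out.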

Additional observations from a re-analysis of the deposited data

How the results depend on the processing

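Against 79 probe sets called by limma as deposited, 0 were called after quantile normalization (591 at an unadjusted p under 0.05), 285 among probe sets above the median level, 2 without moderation, 0 without WT tumour 3 and TNKO tumour 1 (5353 unadjusted) and 1424 after quantile normalization without TNKO tumour 3. Leaving out each tumour in turn gave 0 to 73 calls, 26 to 31 higher endothelial genes, a median difference of 6.94 to 27.9 millionths and 9 to 22 genes without overlap. Of all genes, 36.0% had no overlap without WT tumour 1 and 40.5% without TNKO tumour 3. That share was not computed for the other tumours left out. The replicate block gave 0 calls (7816 unadjusted, 21 of them endothelial), and it leaves the difference of each gene unchanged. Without the block 9144 probe sets were at an unadjusted p under 0.05 by limma, 8 of them endothelial. Over all probe sets, same-numbered tumours did not deviate together (correlations 0.0289, -0.0157 and 0.00531). Among the endothelial genes, tumour 3 was the lowest of its group in 25 of 34 in either host. These values do not settle whether the numbers pair tumours. Endothelial probe sets called stayed at 0 except for 3 after quantile normalization without TNKO tumour 3.

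Endothelial genes with a higher mean numbered 5 after quantile normalization (median difference -567, 1 without overlap), 4 with array medians subtracted (-747, 1 without overlap) and 19 of the 23 above the median level (53.2). Without TNKO tumour 3 the median difference was 35.7 with medians subtracted and 172 after quantile normalization. Groups did not overlap in 16 and 19 genes there. The share over all genes was 40.5% without that tumour on the deposited values. It was not computed for the rescaled arrays, so these counts have no background. Over all probe sets the median difference went, once TNKO tumour 3 was left out, from -764 to 7.94 with medians subtracted and from -538 to 0.167 after quantile normalization; which feature of that array matters in the latter was not tested. No member reversed under the offset or the mean over probe sets. The block, the moderation settings and the level filter, which kept 23 members, leave the difference of a gene unchanged, so no reversal could occur there. Aplnr, Cd34, Ecscr, Gpihbp1, Lyve1 and Mmrn2 reversed under no alternative run. The cause of the other changes was not tested.

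Reversed differences, in millionths, were as follows. After quantile normalization they were Cdh5 -348, Pecam1 -762, Esam -620.2, Ptprb -592, Emcn -901, Clec14a -623, Kdr -758, Flt1 -782, Flt4 -638, Tek -439.8, Tie1 -637, Eng -575, Robo4 -510, Vwf -432, Egfl7 -317, Esm1 -603, Sox17 -443, Sox18 -542, Erg -613, Tal1 -821, Prox1 -211, Plvap -689, Nos3 -559.7, Rasip1 -435 and Ushbp1 -606. With array medians subtracted they were Cdh5 -361, Pecam1 -696, Cldn5 -171, Esam -711, Ptprb -542, Emcn -748, Clec14a -747, Kdr -761, Flt1 -762, Flt4 -755, Tek -652, Tie1 -757, Eng -755, Robo4 -687, Vwf -622, Egfl7 -614, Esm1 -763, Sox17 -738, Sox18 -673, Erg -760, Tal1 -762, Prox1 -764, Plvap -707, Nos3 -761, Rasip1 -758 and Ushbp1 -756. Among the alternatives chosen after the data were seen, they were Pecam1 -15.4, Esam -38.9, Emcn -32.9, Kdr -10.3, Sox17 -0.442, Erg -3.44, Plvap -3.83 and Ushbp1 -5.42 without WT tumour 3 and TNKO tumour 1, Icam2 9.42 and Apln 1.26 with medians subtracted without TNKO tumour 3, and Icam2 83.8, Clec14a -19, Tie1 -63.1 and Apln 172 after quantile normalization without that tumour. With each tumour left out in turn, differences ran for Emcn from -10.7 to 38.6, Erg from -1.42 to 7.3, Esam from -4.57 to 97.4, Esm1 from -0.776 to 2.05, Flt4 from -2.12 to 16.2, Icam2 from -7.52 to 3.27, Kdr from -4.09 to 9.64 and Ushbp1 from -1.03 to 12.9.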
